A study of Mus musculus with 2 samples.

Results

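The genes described here encode the proteins of the cytosolic ribosome. They were taken as every gene with a probe set of its own, annotated to exactly 1 symbol, whose symbol begins with Rpl or Rps and a number, together with Rplp0, Rplp1, Rplp2 and Rpsa. The kinases named Rps6k (11 probe sets) and numbered pseudogenes (1 probe set) were left out. The rule gave 50 genes with 106 probe sets, of 18194 genes and 45101 probe sets in all. Of these 50, 26 encode proteins of the large subunit and 23 proteins of the small subunit or their close relatives. The last, Rps19bp1, matches the naming rule but encodes a protein that binds Rps19 and is no part of the ribosome. RNA from the upper 1/3 of the gut was measured on 2 Affymetrix arrays, 1 for wild-type (WT) mice and 1 for mice with a germline deletion of Cd36 (CD36KO), a receptor for fatty acids, both on the C57BL/6 background and fed chow. Each array holds the pooled RNA of 3 animals, so there is 1 measurement per genotype, no replicate error and no test for any difference given here. Age and sex of the animals are not stated. The whole gut wall was extracted, so a change in cell makeup and a change in RNA per cell cannot be told apart.

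A ribosome joins a small subunit, which reads the messenger RNA, with a large subunit, which links the amino acids. Nearly all of the proteins are needed in equal numbers, and the messenger RNAs of nearly all of them begin with a tract of pyrimidines at the cap, the terminal oligopyrimidine (TOP) tract, through which mTOR signalling controls their translation together. Ribosome production is high in the dividing crypt cells of the intestine and in cells that secrete much protein, such as pancreatic acinar cells and Paneth cells.

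The start sites of the genes are shown first, because the TOP tract is the sequence feature that these genes have in common and the naming rule did not use it. RefSeq promoters (GRCm38.p6) were found for 44 of the 50 genes. A C at the annotated start followed by at least 4 bases that are each C or T, on the transcribed strand, was present in 8 of the 44 (18.2%) and in 3.01% of all 27025 genes with an entry. A run of at least 8 bases of C or T within 10 bases of the start, which can overlap the first motif, was present in 15 of the 44 (34.1%) and in 8.71% of all genes. An annotated start can lie some bases away from the cap, so the absence of these letters from the window says nothing about the messenger RNA. Each line below gives 15 bases before and 15 bases from the start on, and capitals mark the longest run of C or T within 10 bases on either side of it. The first 8 are the genes with the start motif.
Rps6: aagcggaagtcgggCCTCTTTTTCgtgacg
Rpl35: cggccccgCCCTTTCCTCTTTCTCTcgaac
Rpl14: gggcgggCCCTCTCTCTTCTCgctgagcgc
Rps10: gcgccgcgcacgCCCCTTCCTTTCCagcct
Rps18: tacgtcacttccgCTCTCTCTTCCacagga
Rplp2: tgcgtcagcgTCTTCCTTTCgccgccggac
Rpl38: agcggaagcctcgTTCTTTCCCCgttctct
Rps27: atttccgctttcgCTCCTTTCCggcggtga
Rpl27a: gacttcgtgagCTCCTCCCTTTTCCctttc
Rpl12: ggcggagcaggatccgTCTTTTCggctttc
Rpl27: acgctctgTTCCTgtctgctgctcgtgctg
Rps9: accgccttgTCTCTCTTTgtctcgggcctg
The last 4 lack the start motif as searched and are shown because their probe sets stand at the edges of the results below. In GRCm38.p6 the printed windows of the genes at these edges are chr4:86857353-86857382 (minus strand) for Rps6, chr2:32961697-32961726 (plus) for Rpl12, chr7:109519180-109519209 (plus) for Rpl27a, chr11:101442230-101442259 (plus) for Rpl27 and chr7:3704026-3704055 (plus) for Rps9. Among the genes above the expression filter, the 8 with the start motif had a median CD36KO minus WT difference of 0.024 (log2) and the 33 without it one of 0.072. Both medians lay near 0. Among the 8, Rps6, Rpl14 and Rps27 were read at a probe set dimmer than one shared with other symbols, described below. The same holds for some of the 33, such as Rpl12 and Rpl27a.

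All values are deposited log2 signals, and a difference is CD36KO minus WT. Cd36 itself read lower in CD36KO at each of its 3 probe sets, with differences from -1.83 to -1.22. The CD36KO values were 5.87, 6.02 and 3.52, against WT values of 7.70, 7.68 and 4.74, so 2 of the 3 stayed above 4.51, the expression filter used here. Whether they lie inside the deleted stretch is not stated, so they check the labels in part. The 2 arrays differed in the 3′ to 5′ coverage of their control RNAs. The 3′ minus 5′ value of the actin control was 2.28 in WT and 1.34 in CD36KO. For the GAPDH control it was 1.28 and 0.71. The polyadenylated RNAs added to every sample also fell more at their 3′ than at their 5′ ends. One reading of dap differed by -0.73 at the 3′ end and -0.15 at the 5′ end. The coverage difference was thus not seen in the RNA of the mice alone. The makeup of the pools differed as well. All 18 pancreas acinar markers above the filter were higher in CD36KO (median 1.70), as were all 14 distal small intestine markers (median 1.32) and all 10 smooth muscle markers (median 0.53), while 13 of 14 proximal markers were lower (median -0.50). Of the acinar markers, 17 were at least 1.5-fold higher, against 5.31% of all genes above the filter. The other, Zg16, read 13.7 in both pools (0.017, and -0.085 at another probe set). Mean values over the lists were 8.69 in WT and 10.6 in CD36KO for acinar markers, 7.95 and 10.1 for distal markers, 9.46 and 10.03 for smooth muscle markers, and 10.2 and 9.58 for proximal markers. Of 9 B and plasma cell markers, 8 were higher (median 0.35), with means of 7.49 and 7.91. General epithelial markers went both ways, from -0.48 for Lct, the lactase, to 0.70 for Krt19, a keratin. The means of that list, 11.6 and 11.7, also count Pdgfb, at 5.37 in WT and 5.47 in CD36KO. Pdgfb is no epithelial marker and was matched by name in place of Sis. The part of coverage and of cell makeup in the small differences described below was not tested.

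The ribosomal protein genes read almost the same in both pools. A gene counted as expressed where WT or CD36KO read at least 4.51, and 47 of the 50 genes passed. This filter is the median, over the probe sets of the array, of the brighter of both readings. Rpl3l, a paralog of Rpl3 used in muscle, Rpl39l, a paralog of Rpl39, and Rps16 were below it in both pools, the last at a probe set far dimmer than one that it shares with other symbols. None of the 47 was at least 1.5-fold higher in CD36KO, against 5.31% of the 11981 genes above the filter, and 1 was at least 1.5-fold lower, Rpl12, against 3.31%. At the smaller size of 1.2-fold, 6 were higher, against 18.7% of all genes, and 4 lower, against 17.5%. These shares of the ribosomal protein genes, 12.8% and 8.51%, were below the background. The median difference was 0.059, and that of all genes above the filter -0.0059. The differences had an SD of 0.23 over the 47 genes and of 0.41 over all genes. Of the 47, 30 read higher and 17 lower in CD36KO (63.8% higher, against 48.8% of all genes). The 24 large subunit genes above the filter had a median of 0.059, with 16 higher and 8 lower, and the 22 small subunit genes had one of 0.057, with 14 higher and 8 lower. Without genes that have a brighter shared probe set these medians were 0.12 and 0.062.

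**Figure D1:**
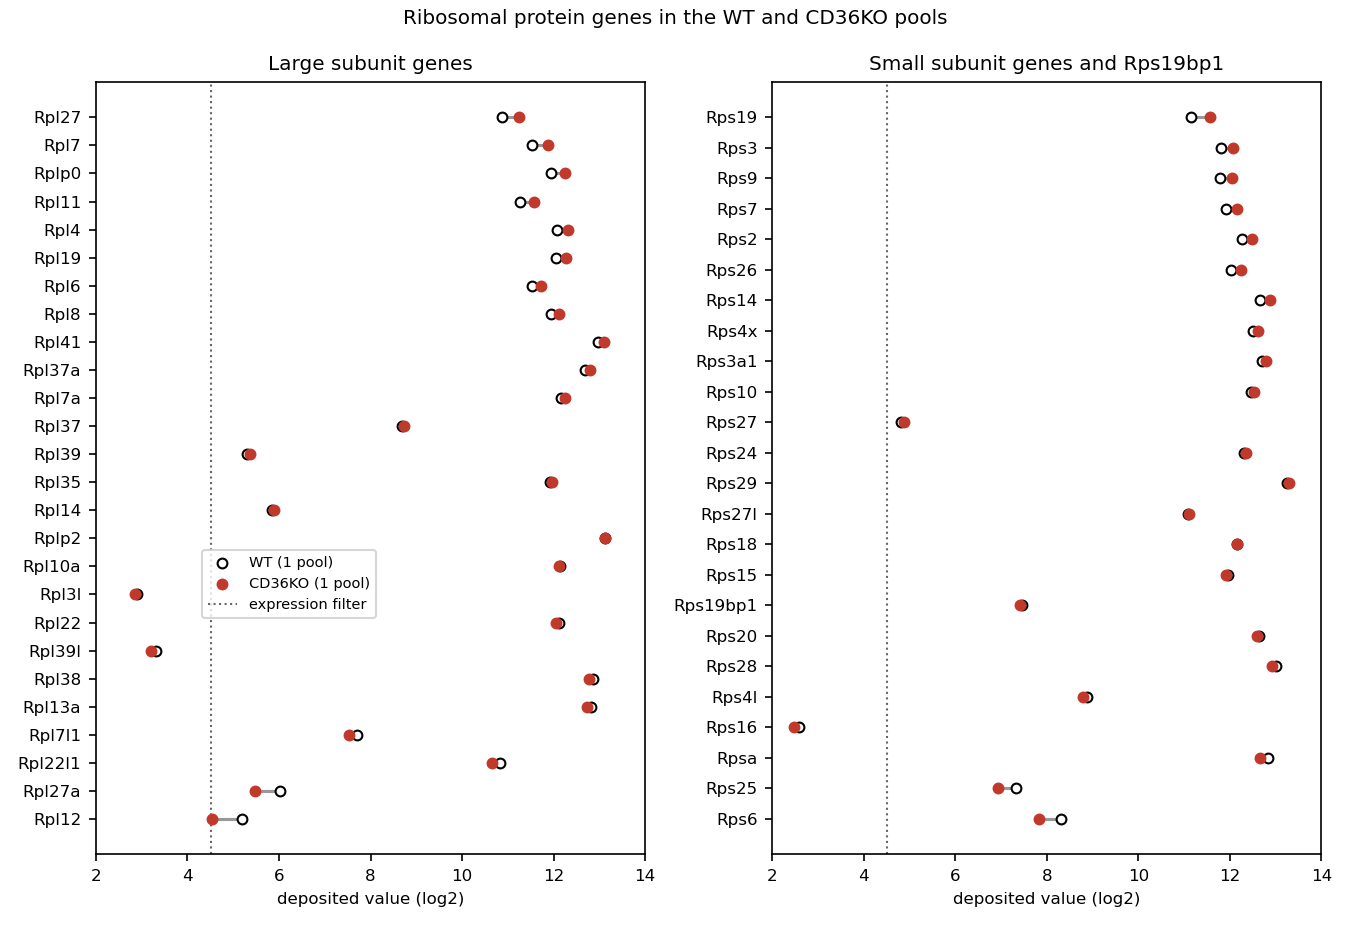
Deposited log2 value of each of the 50 genes in the WT pool (open circles) and the CD36KO pool (filled circles), for large subunit genes on the left and small subunit genes with Rps19bp1 on the right, ordered by the difference. There are no error bars because each genotype is 1 pool. Most pairs of circles nearly touch, Rps19 and Rpl27 lie at the top of their panels, and the wider gaps at the bottom belong to Rpl12, Rpl27a, Rps6 and Rps25; the dotted line is the filter at 4.51.

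In the large subunit, 4 genes read at least 1.2-fold higher in CD36KO. Rpl27 read 10.9 in WT and 11.2 in CD36KO, a difference of 0.36. Rpl7 read 11.5 and 11.9, also a difference of 0.36. Rplp0, the base of the stalk that recruits the translation GTPases, read 11.9 and 12.3, a difference of 0.32. Its partner Rplp2, another stalk protein, did not follow, at 13.1 in both pools and a difference of 0.0053. Rplp1, which pairs with Rplp2, has no probe set of its own here. Rpl11, which with Rpl5 can bind Mdm2 and so stabilise p53, read 11.3 and 11.6, a difference of 0.30. Rpl4, whose protein lines the exit tunnel of the growing peptide, was just under 1.2-fold, at 12.1 and 12.3 and a difference of 0.24. Rpl19, Rpl6 and Rpl8 stood between 0.18 and 0.23. Rpl41, the smallest ribosomal protein, read 13.0 in WT and 13.1 in CD36KO.

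The large subunit genes that read lower were few. Rpl12, whose protein sits at the base of the stalk beside Rplp0, read 5.20 in WT and 4.55 in CD36KO, 1.57-fold lower, and its CD36KO value lay just above the filter. Rpl27a read 6.03 and 5.47, 1.48-fold lower. Both of these probe sets are dim, and both genes have a brighter probe set that is shared with another symbol, described further on. Among the large subunit genes whose brightest own probe set had a mean of at least 10, the lowest differences were those of Rpl22l1 (10.8 and 10.6, a difference of -0.19), Rpl13a (12.8 and 12.7, -0.10) and Rpl38 (12.9 and 12.8, -0.096). Rpl13a is known outside the ribosome for silencing inflammatory messenger RNAs, and Rpl38 for its part in the translation of Hox genes. A further probe set of Rpl37a read -0.13, while the one used for that gene read 0.11.

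In the small subunit, Rps19 had the highest difference of all 50 genes. It read 11.1 in WT and 11.6 in CD36KO, a difference of 0.42 (1.34-fold), at its only probe set. Rps19 is the gene most often mutated in Diamond-Blackfan anaemia, a failure of red cell production. Rps3, which lines the channel where messenger RNA enters, read 11.8 and 12.1, a difference of 0.27, and was the other small subunit gene past 1.2-fold. Rps9, a neighbour of Rps3 at the same channel, read 11.8 and 12.0, a difference of 0.26, just under that size. Rps7, Rps2, Rps26 and Rps14 followed, between 0.20 and 0.24. Rps14, which is lost in a form of myelodysplasia, read 12.7 in WT and 12.9 in CD36KO.

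Other small subunit genes differed little or read lower. Rps6, the substrate of the S6 kinases downstream of mTOR, read 8.30 in WT and 7.83 in CD36KO, 1.38-fold lower, at a probe set that is not the brightest one bearing its symbol. Rps25, which some viral and cellular messenger RNAs need for internal initiation, read 7.34 and 6.93, 1.33-fold lower, at a probe set of the same kind. Rpsa, the small subunit protein also described as a laminin receptor precursor, read 12.8 and 12.7, a difference of -0.16, and -0.17 at another probe set under the filter. Rps28 (13.0 and 12.9), Rps20 (12.6 and 12.6) and Rps29 (13.3 and 13.3) differed by between -0.081 and 0.030. Every small subunit gene past 1.2-fold in the lower direction was read at a dim probe set.

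Paralogs allow the same position in the ribosome to be filled by different proteins. Rpl22 and Rpl22l1 can replace each other, and Rpl22 protein is known to repress Rpl22l1. Rpl22 read 12.1 in both pools (a difference of -0.062) and Rpl22l1 differed by -0.19. Neither passed 1.2-fold. Rpl7 and its relative Rpl7l1 differed in sign, with 0.36 for Rpl7 and -0.18 for Rpl7l1, which read 7.71 in WT and 7.54 in CD36KO. Another probe set of Rpl7l1 read a difference of 0.069. Rps27l, a paralog of Rps27 that p53 can induce, read 11.1 in both pools (a difference of 0.022), with its other probe sets up to 0.10. Rps27 itself was read at a dim probe set, at 4.82 in WT and 4.89 in CD36KO. Rps4x, encoded on the X chromosome, read 12.5 and 12.6, a difference of 0.10, and its paralog Rps4l read 8.88 and 8.79, a difference of -0.086. Rpl39 read 5.31 and 5.37. The paralogs below the filter, Rpl3l (2.90 and 2.86) and Rpl39l (3.30 and 3.21), read low in both pools. Rps19bp1 read 7.46 and 7.41 and did not share the higher reading of Rps19.

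Probe sets of the same gene disagreed in many cases. Of the 50 genes, 24 had several probe sets and 20 had several above the filter. For these 20 the span between the highest and lowest difference had a median of 0.23, against 0.35 for the 4801 genes of the array with several probe sets above the filter. In 14 of the 20 (70.0%) the probe sets gave both signs, against 52.2% of those genes. In 6 of the 20 (30.0%) they lay at least 0.2 on both sides of 0, against 13.5%. These 6 were Rpl13a, Rpl27, Rpl41, Rps24, Rps3 and Rps9. The genes of the array were not matched to the 20 for the number of probe sets per gene. A gene with more probe sets can more readily show both signs, so the shares are not a like comparison.

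Rps9 had the widest span. Its brightest probe set read 11.8 in WT and 12.0 in CD36KO, while a further one read 10.8 in WT and 8.88 in CD36KO, 3.73-fold lower, in the opposite direction. A dimmer probe set, below the filter, read 4.01 and 4.13. The 3.73-fold reading is the one value past 2-fold among the 89 probe sets of ribosomal protein genes above the filter, and it has no counterpart at the other probe sets of Rps9. Rps24 read a difference of 0.046 at its brightest probe set and from -0.61 to 0.26 over all 6. Rpl41 read 0.13 and 0.28 at its bright probe sets, -0.45 at one of 5.77 in WT and 5.32 in CD36KO, and -0.99 at one below the filter. Rps3 read 0.27 at its brightest probe set and -0.31 at one of 6.62 in WT and 6.31 in CD36KO. Rpl27 read 0.36, 0.0029 and -0.20, and Rpl13a between -0.23 and 0.29. In each of these 6 genes the value furthest below 0 came from a probe set dimmer than the ones above 0 that passed the filter. Rpl13a also had bright probe sets on both sides of 0.

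Other genes agreed over their probe sets. The 3 probe sets of Rpl7 read 0.36, 0.37 and 0.48, the 2 of Rps7 0.24 and 0.22, and the 3 of Rps28 between -0.081 and -0.037. Of the 6 genes at least 1.2-fold higher, Rpl7 alone was so at more than 1 probe set. Rps19, Rplp0 and Rpl11 rest on 1 probe set each.

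**Figure D2:**
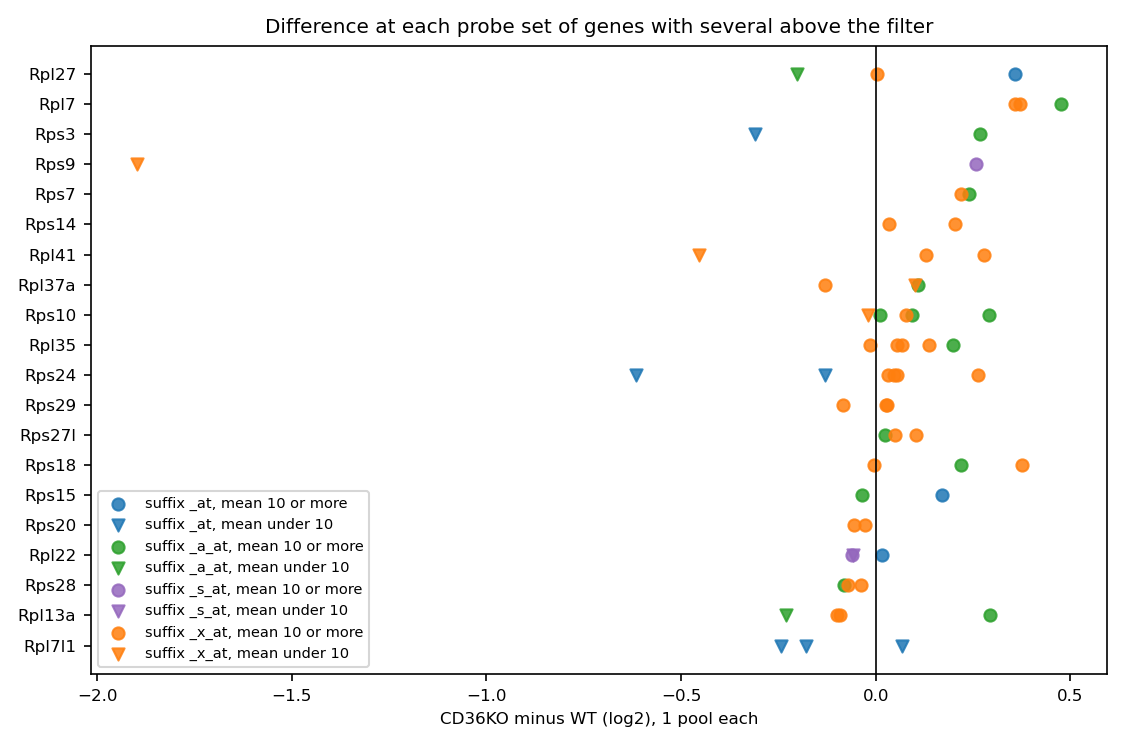
CD36KO minus WT difference (log2) at each probe set above the filter, for the 20 genes with several; colours give the suffix of the probe set name and triangles mark a mean under 10. Circles lie mostly between -0.1 and 0.4, while most triangles lie below 0, the furthest being that of Rps9 at -1.90, which read 10.8 in WT.

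The sign of the difference went with the brightness of the probe set. The split at a mean of 10 was chosen after the values were seen. The mean is over both pools, so it depends in part on the difference. The Rps9 probe set of 10.8 in WT and 8.88 in CD36KO counted as dim only through its CD36KO value. Of the 66 ribosomal probe sets with a mean of at least 10, 49 (74.2%) read higher in CD36KO, against 45.1% of the 1187 such probe sets of all genes, and their medians were 0.081 and -0.030. Of the 23 dimmer ones, 17 (73.9%) read lower, against 48.6% of 18295, with medians of -0.18 and 0.0084. Counted by gene, 36 genes were bright and 11 dim. Among the bright, 6 were at least 1.2-fold higher (16.7%, against 15.1% of the 902 bright genes of the array) and 0 at least 1.2-fold lower (against 20.2%). Among the dim, 0 were at least 1.2-fold higher (against 19% of 11079) and 4 lower (36.4%, against 17.3%). All 4 were Rpl12, Rpl27a, Rps6 and Rps25. These probe sets share 2 arrays, overlap in the genes they read and are not independent of each other.

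Among bright probe sets, the suffix of the probe set name also went with the difference. By the naming of the manufacturer, _x_at marks probes that can also match other sequences, _s_at probes shared by several transcripts, and _a_at probes common to transcripts of 1 gene. Among bright ribosomal probe sets the median difference was 0.18 for the 25 with _a_at (21 higher), 0.20 for the 6 with plain _at (5 higher), 0.046 for the 33 with _x_at (22 higher) and 0.098 for the 2 with _s_at. On the array as a whole the medians were -0.012 for 303 bright _a_at, -0.0027 for 533 _at, -0.085 for 234 _x_at and -0.11 for 117 _s_at probe sets. In both, _x_at lay below _a_at and _at, while _s_at lay above _x_at among the ribosomal probe sets and below it on the array. Among the dimmer ribosomal probe sets the order was the other way, with medians of -0.22 for 2 _a_at, -0.18 for 15 _at and -0.021 for 5 _x_at. The dimmer probe sets of the whole array had medians of 0.077 for _a_at, 0.0076 for _at and -0.093 for _x_at. In the 10 ribosomal genes with bright probe sets of both kinds, _a_at or _at stood above _x_at in 8, by a median of 0.082. In 68 other genes of the array this held for 55, by a median of 0.15. Where the probe sets lie along the transcripts is not stated, so none was read as 5′ or 3′. On the same arrays the 3′ minus 5′ value was lower in CD36KO for the control RNAs, with a change of -0.94 for actin, -0.57 for GAPDH and -0.31 for pyruvate carboxylase. Its part in the differences between suffixes was not tested.

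Many ribosomal probe sets carry several symbols. Processed copies of ribosomal protein genes are frequent in mammalian genomes. A further 110 probe sets named a ribosomal protein gene along with other symbols, 99 of them above the filter. They were not assigned to a gene. Their median difference was 0.011, with 53 higher and 46 lower, against a median of 0.0057 for the 19482 probe sets with 1 symbol above the filter. At least 1.2-fold higher were 15 (15.2%, against 21.2% of those probe sets), and 2 were as much lower (2.02%, against 17.9%). At 1.5-fold, 2 were higher, up to 0.68, against 6.86%, and 0 lower, against 3.46%. Of the 46 ribosomal symbols on them, 31 had no probe set of their own and are not among the 50 genes, such as Rpl3, Rpl5 and Rplp1. The other 15 belong to the 50, and for 11 of these the shared probe set was brighter than the gene's own. These 11 were Rpl12, Rpl13a, Rpl14, Rpl27a, Rpl37, Rpl39, Rps16, Rps2, Rps25, Rps27 and Rps6. They include every gene that was at least 1.2-fold lower. At the brightest shared probe set bearing the symbol, Rpl12 read 11.0 in WT and 11.1 in CD36KO, a difference of 0.053. Rpl27a read 12.4 in both pools there (0.032), Rps6 13.0 in both (-0.020) and Rps25 11.3 and 11.4 (0.096). None of these 4 shared probe sets passed 1.2-fold. Rps16, whose own probe set was below the filter, read 12.8 in both pools at a shared one (-0.013). Without them, 37 genes were above the filter, with a median of 0.079 and differences from -0.19 to 0.42, and 0 were at least 1.2-fold lower. The suffix went with the difference here too: bright shared probe sets had medians of 0.12 for 30 with _a_at, 0.19 for 7 with _at and -0.045 for 35 with _x_at.

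**Figure D3:**
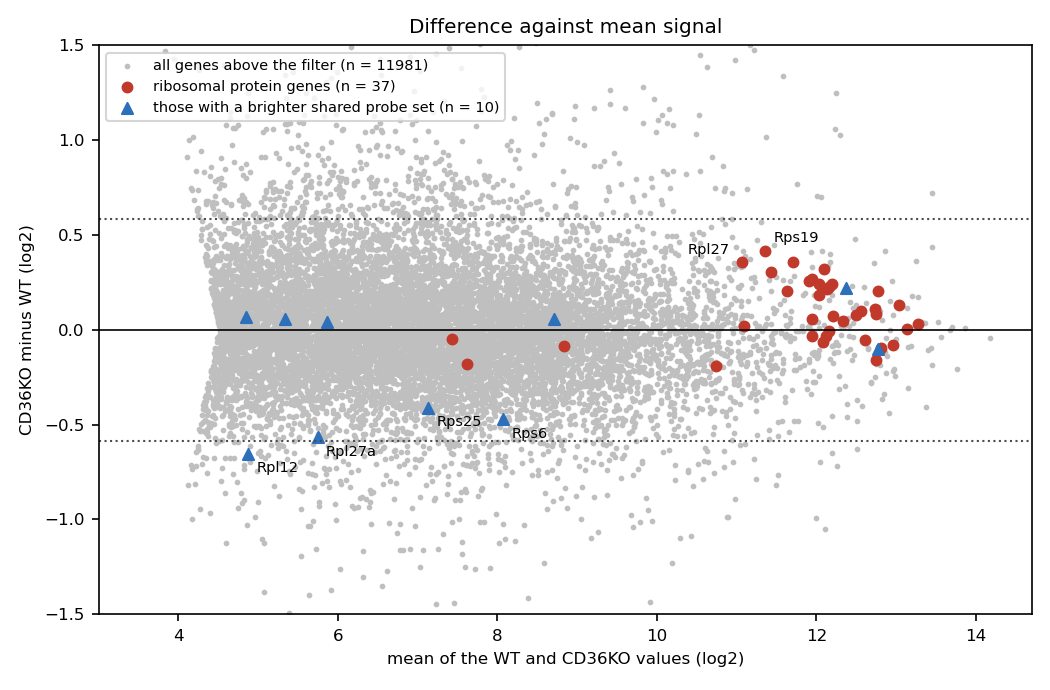
CD36KO minus WT difference (log2) against the mean of the WT and CD36KO values for the 11981 genes above the filter (grey), 37 ribosomal protein genes (red circles) and the 10 above the filter that have a brighter shared probe set (blue triangles). Dotted lines mark 1.5-fold, and 102 genes lie beyond the plotted range; the red circles stay between the lines and Rpl12 lies below the lower one.

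The ribosomal RNA controls of the array, which read RNA that is not polyadenylated, were low and lower in CD36KO. The 3′ control for 18S ribosomal RNA read 7.01 in WT and 6.44 in CD36KO, the middle one 6.49 and 6.29, and the 5′ one 5.83 and 5.41. The RNAs added to every sample as array controls were lower too. All 18 readings of the hybridization controls (bioB, bioC, bioD and cre) differed by between -0.40 and -0.16, and the 8 readings at the 3′ end of the polyadenylated controls (dap, lys, phe and thr) by between -0.96 and -0.60. At the 5′ end these polyadenylated controls differed by between -0.57 and 0.015. Several of the 5′ readings lay under the filter, such as 2.73 in WT and 2.75 in CD36KO for phe. The 18S signal is no measure of ribosome number.

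Translation and assembly factors had medians slightly above 0. Their lists were written with earlier results of these data known. Fau, a ribosomal protein gene outside the naming rule, read 12.3 in WT and 12.2 in CD36KO. Other genes whose messenger RNAs are known to carry a TOP tract, translation factors and a few further proteins, had a median of 0.10 over 20 genes, with 17 higher and 3 lower. At least 1.2-fold higher were 5 (25%, against 18.7% of all genes above the filter) and 2 as much lower (10%, against 17.5%). Among them Pabpc1, the poly(A) binding protein, read 11.0 and 11.6 (a difference of 0.57, but -0.40 at another probe set). Nap1l1, a histone chaperone, read 7.96 and 8.51 (0.54, and from 0.15 to 0.71 over its 7 probe sets). Hnrnpa1, a splicing factor, read 8.95 and 8.32 (-0.64, but 0.23 at another probe set). A further list, mostly initiation and elongation factors, had a median of 0.13 over 24 genes, with 17 higher. At least 1.2-fold higher were 9 (37.5%, against 18.7%), and 0 were lower by as much (against 17.5%). These shares are not those of initiation and elongation factors alone. The list also holds the release and recycling factors Gspt1 (0.53), Etf1 (0.13) and Abce1 (0.30). It further holds the inhibitors Eef2k (0.50), Eif4ebp1 (0.27) and Eif4ebp2 (-0.24). Eif2s2, a subunit of the factor that brings the initiator tRNA, read 9.56 and 10.3 (1.69-fold), and Eif4e, the cap binding protein, 7.40 and 8.01 (1.53-fold). Both had a probe set of opposite sign, at -0.63.

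Ribosome assembly factors had a median of 0.084 over 63 genes, with 42 higher and 21 lower (66.7% higher, against 48.8% of all genes). Of the 63, 16 passed 1.2-fold upward (25.4%, against 18.7%) and 4 downward (6.35%, against 17.5%). Those past 1.5-fold were Nop14, at 5.41 in WT and 6.03 in CD36KO, Tcof1, the treacle protein of the nucleolus, at 5.06 and 5.66, Rpf1, at 5.71 and 6.31, and in the lower direction Tsr1, at 7.79 and 7.19 (but 0.47 at its other probe set). RNA polymerase I and its factors, which make the large ribosomal RNA, had a median of -0.15 over 10 genes, with 0 at least 1.2-fold higher (against 18.7%) and 5 lower (50%, against 17.5%). This median was 0.0042 with the mean over the probe sets of a gene. Taf1d read 6.99 and 6.22 (-0.77, with 0.28 at another of its 7 probe sets). Polr1a read 5.96 and 5.51 (-0.44, with 0.32 at another of its 5), and Taf1a 5.89 and 5.52 (1 probe set). Polr1c (-0.32) and Ubtf (-0.28), also among the 5, read 0.10 and 0.21 at their other probe sets.

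The mTOR and p53 lists had medians on either side of 0. The mTOR, S6 kinase and Myc list had a median of 0.025 over 20 genes, with 3 at least 1.2-fold higher (15%, against 18.7%) and 2 lower (10%, against 17.5%). Max, the partner of Myc, read 6.65 in WT and 7.56 in CD36KO (1.88-fold, 1 probe set). Rps6ka5 read 6.34 and 5.61 (1.66-fold lower, and from -0.85 to 0.014 over its 3 probe sets). Mnt, which opposes Myc, read 8.07 and 7.64 (-0.43, but 0.16 at its other probe set). The list for p53, which is stabilised when ribosome assembly stalls, holds its targets and partners but no reading of p53 itself. It had a median of -0.083 over 14 genes, with 4 higher and 10 lower (28.6% higher, against 48.8% of all genes). Past 1.2-fold were 0 in either direction, against the same shares of all genes. The p53 median was 0.036 with the mean over the probe sets of a gene. Mdm2 read 8.09 and 8.22, and Cdkn1a 10.5 and 10.3. Proteins of the mitochondrial ribosome, a separate particle, had a median of -0.020 over 76 genes, with 32 higher and 43 lower (42.1% higher). At least 1.2-fold higher were 6 (7.89%, against 18.7%), and 12 were as much lower (15.8%, against 17.5%). Mrpl47 (8.70 and 8.12) and Mrpl41 (9.49 and 8.97) had the largest differences, each with a probe set of opposite sign. Crypt proliferation markers had a median of 0.16 over 18 genes in the same pools, with 12 higher and 6 lower. They ranged from -0.43 for Rrm2 to 0.95 for Aurkb, and Mki67 read -0.19. At least 1.2-fold higher were 7 (38.9%, against 18.7%), and 2 were as much lower (11.1%, against 17.5%). Several, such as Lgr5, Top2a and Rrm2, had a probe set of opposite sign.

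**Figure D4:**
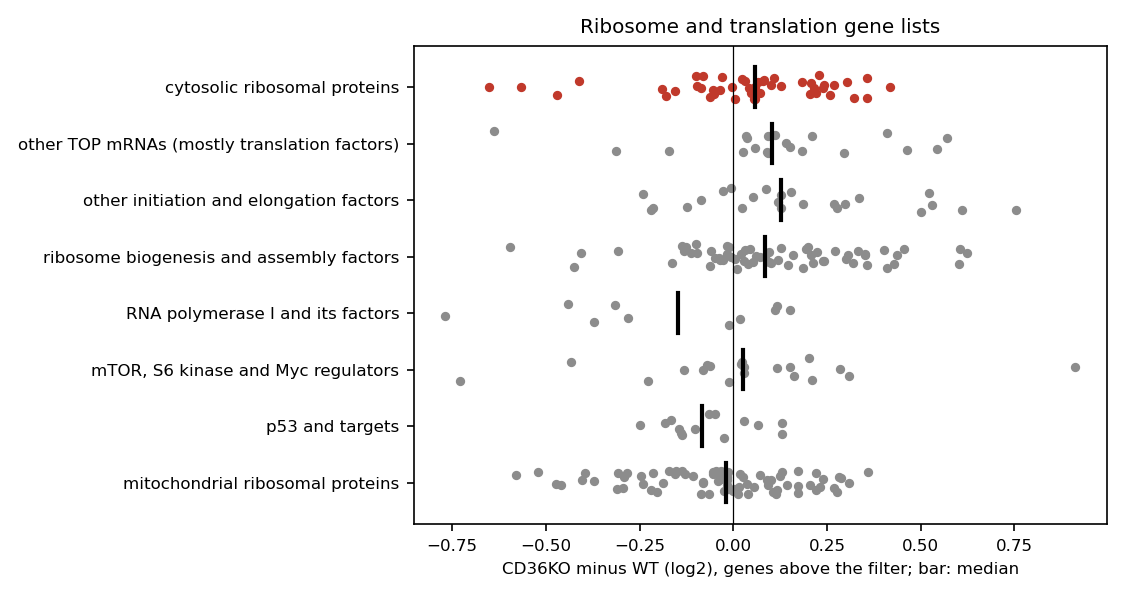
CD36KO minus WT difference (log2) of each gene above the filter in 8 lists, with a bar at the median; 1 pool per genotype, so no error bars. The 47 cytosolic ribosomal protein genes (red) centre on 0.059, the lists of other TOP messenger RNAs, translation factors and assembly factors on 0.084 to 0.13, and the RNA polymerase I list on -0.15.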

How the data were processed

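Messenger RNA of 2 pools, each of 3 mice, was measured on 2 arrays from 100 ng of total RNA. The values deposited by the authors are on a log2 scale, which follows from their highest value of 14.2; their summarization and normalization were not given in the sources used here. Detection calls do not accompany the values. Column medians were 4.38 and 4.38. Probe sets were named from the platform annotation: 34958 carried 1 symbol, 932 several and 9211 were unnamed here. All 50 genes matched RefSeq by identifier, with 0 symbols changed.

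Per gene the probe set with the highest mean was used, and the CD36KO minus WT difference was taken with no further scaling. With 1 array per genotype there is no test, and the number of arrays limits precision. The genes, lists, thresholds of 1.5-fold and 1.2-fold and alternatives were chosen with earlier results of these data known. Named were the 8 genes with the largest differences each way, the 6 brightest and dimmest, the 8 with the widest span over probe sets, paralogs, a fixed set of well-known members and up to 3 genes per other list. Rpl6, Rpl8, Rpl19, Rps2, Rps7, Rps20, Rps26 and Mdm2, Cdkn1a and Mrpl41 are further examples chosen after their values were seen. Alternatives were 3 scalings, 3 choices of probe set, other filters (none, 75th percentile), thresholds of 2-fold and 3-fold and membership. Differences were computed in Python 3.11.15 with NumPy 2.4.6 and pandas 2.3.3, trends with statsmodels 0.14.6 and plots with matplotlib 3.10.9. The code was also run on simulated data with shifts far larger than the differences described here. That run does not bear on calls at 1.2-fold or 1.5-fold.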

Additional observations from a re-analysis of the deposited data

How the results depend on the processing

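With 1 array per genotype no replicate could be left out and no paired analysis was possible because each group has a single sample. The median of the ribosomal protein genes, 0.059 as reported, ranged from 0.016 with quantile normalization to 0.092 with a mean signal of at least 10, and 0 genes were 1.5-fold higher under each of them. The count at least 1.5-fold lower, 1 as reported, was 2 with quantile normalization and 2 with probe sets lacking the _s_at and _x_at suffixes, and 0 with the 75th percentile filter, with a mean signal of at least 10, without genes that have a brighter shared probe set, and at 2-fold and 3-fold. The count at least 1.2-fold lower, 4 as reported, was 5 without these suffixes and 3 with the mean over probe sets. With the probe set of smallest absolute difference the count was 2. There Rpl27a and Rps6 dropped out, because those probe sets lay below the filter, and 43 genes remained. The 75th percentile filter also gave 2, since it removed Rpl12 and Rpl27a, and left 42 genes. The count was 0 at 2-fold and 3-fold. A mean signal of at least 10 also gave 0, as did leaving out genes that have a brighter shared probe set. The count at least 1.2-fold higher, 6 as reported, was 9 after removal of a lowess trend, 7 without the suffixes and 5 with quantile normalization. It was 4 with the mean over probe sets, 4 with the smallest difference, and 0 at 2-fold and 3-fold. With the smallest difference Rps3 dropped out in the same way, and Rpl27 read 0.0029. Genes with probe sets on both sides of 0 numbered 0 at a size of 0.4. With the mean over probe sets, Rps3 changed sign to -0.039, Rps9 to -0.51, Rpl41 to -0.26, Rps4x to -0.089 and Rps24 to -0.059. This mean also counts probe sets below the filter. For Rps4x these include one of 3.39 in WT and 3.11 in CD36KO (-0.28), and for Rpl41 one of 4.16 and 3.17 (-0.99). Without the suffixes, Rpl13a changed to 0.29, Rps18 to 0.22 and Rps24 to -0.61, and with the smallest difference Rpl7l1 changed to 0.069. Rpl14, Rpl22, Rplp2, Rps18 and Rps29, all within 0.1 of 0 as reported, also changed sign under some setting. The RNA polymerase I median was 0.0042 with the mean over probe sets and without the suffixes, 0.019 with the smallest difference and -0.28 with the 75th percentile filter. The p53 median was 0.036 with the mean over probe sets, and the mTOR median -0.0049 with quantile normalization. The settings on signal and on shared probe sets were chosen after seeing the data. The split by brightness held under each scaling: 46 to 51 of 66 bright probe sets read higher and 16 to 18 of 23 dim ones lower. Unknown background limits the dim values.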
